A study of Mus musculus with 2 samples.

Results

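The cells described here are S-phase modulated vascular smooth muscle cells (VSMCs), that is, cells with at most 1 molecule counted of the mRNA of smooth muscle myosin heavy chain (Myh11), with several of DNA replication mRNAs and with few of 5 mRNAs of mitosis. They were selected on measured values from primary aortic VSMCs of wildtype mice that had been cultured for 5 days. A cell was a member if it held at most 1 Myh11 UMI, at least 6 UMIs summed over Hist1h1b, Hist1h2ap, Hist1h2ae, Esco2 and Clspn, and at most 2 UMIs summed over Ube2c, Ccnb1, Plk1, Cdc20 and Aurka. The rule found 199 cells among the 11690 cells that passed the quality filters, 61 in replicate 1 and 138 in replicate 2.

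Both libraries, biological replicates 1 and 2, were of 1 condition and 1 genotype, wild type, with no transgene and no treatment named in the labels, and the cells were detached from culture dishes and not taken directly from the aorta. By the study's methods a cell preparation pooled the thoracic aortae of several mice on average, so a library does not stand for 1 animal. In the 10x Genomics 3′ method used, an oligo-dT primer captures polyadenylated mRNA in droplets, and barcodes mark the cell, and random tags called UMIs (unique molecular identifiers) mark the molecule, so that PCR copies are counted once. The files held 127949633 UMIs in replicate 1 and 132561822 in replicate 2. The quality filters asked for 300 or more genes, 3000 or more UMIs and a mitochondrial share below 20%. They left 4866 and 6824 cells, whose median depth was 22234.5 and 16310 UMIs, and 9 barcodes were kept in both libraries where 4.89 were expected from the size of the barcode list.

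In a healthy arterial wall VSMCs rarely divide. In culture they can enter the cell cycle and secrete matrix while their contractile proteins decline, a change called phenotypic modulation. In late G1 phase, cyclin E with its kinase Cdk2 inactivates the pocket proteins, the E2F transcription factors are released, and genes for origin licensing, the replication fork, nucleotide synthesis and the packaging of new DNA are transcribed. Genes for mitosis come up later in the cycle, many of them under the DREAM and MuvB complexes that bind the CHR element (cell cycle genes homology region). Core and linker histones are made in step with DNA synthesis from mRNAs that mostly lack a poly(A) tail, so that an oligo-dT method captures only part of them.

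Promoter sequences were searched for both motifs. The window ran from 250 bases before to 50 bases after the transcription start in the RefSeq promoter table of GRCm38.p6, and both strands were read. The E2F motif was TTTCCCGC, TTTGGCGC, TTTCGCGC or TTTGCCGC, and the CHR motif was TTTGAA. An E2F match can share bases with another on the other strand. A gene was counted once, if any of its promoter windows in the table held a match. The promoter counts below are therefore counts of genes. Of the 20 genes of the origin licensing list, 15 had a promoter in the table and 8 of these (53.3%) held an E2F motif. The share was 4.9% of 9221 genes tested and 2.6% of all 27025 genes with a promoter. Of the 28 genes of the mitosis list, 24 had a promoter, 0 of these held an E2F motif and 17 (70.8%) held a CHR motif. The CHR share was 14.2% of the genes tested and 20.2% of all genes with a promoter. The CHR motif was not confined to mitosis genes. It was found in 33.3% of licensing, 29.4% of histone supply, 40.0% of E2F and pocket protein and 44.1% of replication-dependent histone promoters. In fork genes it was found in 8.7% and in checkpoint and repair genes in 5.9%. The E2F motif was found in 6 of 17 promoters (35.3%) of histone supply genes, in 6 of 23 (26.1%) of replication fork genes, in 1 of 19 (5.3%) of nucleotide synthesis genes and in 5 of 10 of E2F and pocket protein genes. It was also found in 3 of 8 promoters (37.5%) of cohesin genes, in 3 of 11 (27.3%) of ribosome biogenesis genes, in 3 of 10 of cyclins and kinases and in 4 of 17 (23.5%) of checkpoint and repair genes. It was found in 0 of 17 promoters of contractile genes, in 0 of 8 of modulated markers, in 0 of 18 of matrix genes and in 1 of 19 of cGMP pathway genes. A match of letters describes the sequence and does not show that a factor binds there.

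Stretches around an E2F match are shown for abundant called genes of the licensing, fork, histone supply, E2F and cyclin lists, ranked by their level in the members. These genes were higher in the members than in non-cycling cells. The match had to lie before the start and the stretch outside annotated exons, and genes with several promoter windows were left out. Cdk1 was not particular to the members, with 126 and 148 CPM (UMIs scaled to 1000000 per sum) against 200 and 224 CPM in G2/M cells. Each is written 5′ to 3′ on the strand of its gene, and capitals mark the motif, read on the opposite strand for Mcm5, Pola1 and E2f7.
Mcm6 (chr1:128359715-128359782, minus strand): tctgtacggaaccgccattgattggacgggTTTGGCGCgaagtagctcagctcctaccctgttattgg
Mcm5 (chr8:75109330-75109397, plus strand): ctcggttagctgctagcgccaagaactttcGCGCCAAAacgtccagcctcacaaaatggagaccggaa
Pola1 (chrX:93632256-93632323, minus strand): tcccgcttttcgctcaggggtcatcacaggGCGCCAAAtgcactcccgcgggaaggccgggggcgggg
Casp8ap2 (chr4:32615264-32615331, plus strand): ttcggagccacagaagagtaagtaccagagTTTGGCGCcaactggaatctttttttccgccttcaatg
E2f7 (chr10:110745211-110745278, plus strand): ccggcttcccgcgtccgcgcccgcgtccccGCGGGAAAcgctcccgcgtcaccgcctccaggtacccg
Cdk1 (chr10:69353006-69353073, minus strand): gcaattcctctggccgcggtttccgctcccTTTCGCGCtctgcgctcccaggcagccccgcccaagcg
The motif began 47 bases before the start of Mcm6, 149 before Mcm5, 138 before Pola1, 176 before Casp8ap2, 198 before E2f7 and 131 before Cdk1. In the Mcm5 stretch a match on the strand shown overlaps the marked one and stays partly in lower case.

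For contrast, stretches around a CHR match are shown for abundant mitosis genes that were lower in the members than in G2/M cells. These were ranked by their level in G2/M cells, and the other limits were those of the E2F stretches. Capitals mark the motif, read on the opposite strand for Cdkn3 and Kif2c, and a further match in the Mki67 stretch stays in lower case.
Mki67 (chr7:135716442-135716507, minus strand): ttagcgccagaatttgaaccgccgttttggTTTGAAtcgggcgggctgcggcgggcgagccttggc
Cdkn3 (chr14:46760400-46760465, plus strand): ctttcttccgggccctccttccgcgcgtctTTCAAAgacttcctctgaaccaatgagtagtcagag
Ccnb2 (chr9:70421686-70421751, minus strand): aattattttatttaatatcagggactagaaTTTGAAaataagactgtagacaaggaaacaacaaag
Kif2c (chr4:117178840-117178905, minus strand): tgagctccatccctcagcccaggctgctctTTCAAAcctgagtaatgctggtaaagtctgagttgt
The motif began 98 bases before the start of Mki67, 111 before Cdkn3, 167 before Ccnb2 and 103 before Kif2c.

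**Figure D1:**
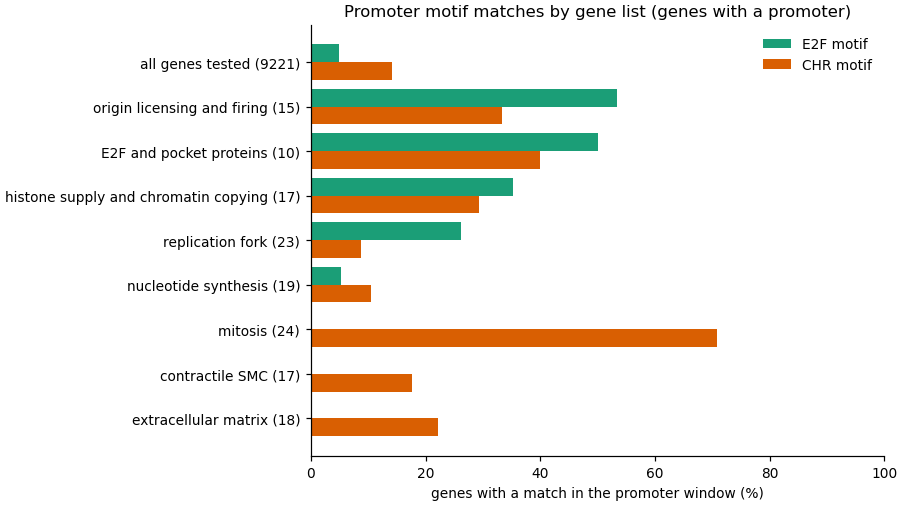
Share of genes with an E2F motif (green) or a CHR motif (orange) in a promoter window, for all genes tested and for 8 gene lists. Shares are in percent of the genes with a promoter, whose number stands in parentheses. The licensing list had the highest E2F share (53.3%) and the mitosis list the highest CHR share (70.8%) of the lists drawn.

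The members were a small fraction of the modulated cells. They made up 1.51% of the 4051 Myh11-low cells of replicate 1 (95% Clopper-Pearson interval 1.15% to 1.93%) and 2.51% of the 5500 of replicate 2 (2.11% to 2.96%), with a mean of 2.01% ± 0.709 (SD, n = 2). The intervals, which cover counting error only, did not overlap at this gate, but with an S-phase sum of at least 10 they did (0.623% to 1.23% and 1.01% to 1.63%). Most cells with high S-phase sums also had mRNAs of mitosis: of 1512 Myh11-low cells that met the S-phase sum, 1313 exceeded the G2/M sum and were left out.

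The gate values that chose the cells are a description only. The S-phase sum had a median of 12 UMIs (6 to 105) in replicate 1 and of 10 UMIs (6 to 49) in replicate 2. Hist1h1b, a linker histone H1 gene (chr13:21779883-21780625, GRCm38, minus strand), gave 45.8% and 59.9% of the gate UMIs. Clspn, which encodes the checkpoint mediator claspin, gave 23.7% and 17.0%, and Esco2, the acetyltransferase that establishes sister chromatid cohesion, gave 7.34% and 8.52%. The core histone genes Hist1h2ap and Hist1h2ae, members of families of near-identical copies whose reads can be split by the counting, gave 18.0% and 5.11% in replicate 1 and 8.68% and 5.86% in replicate 2. The gate was therefore carried mainly by Hist1h1b and Clspn in both libraries.

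The threshold lay on a slope and not in a gap. With a G2/M sum of at most 2, 32 and 21 cells of replicate 1 held an S-phase sum of 4 and 5, and 9 and 5 held a sum of 6 and 7. In replicate 2 these numbers were 41 and 34 outside, and 26 and 14 inside. With the S-phase sum met, 27 cells of replicate 1 and 65 of replicate 2 stood at a G2/M sum of 2, just inside, and 45 and 50 at a sum of 3, just outside. The Myh11 limit mattered less, since 51 and 129 members held 0 Myh11 UMIs and only 3 and 7 cells that met both sums held 2.

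**Figure D2:**
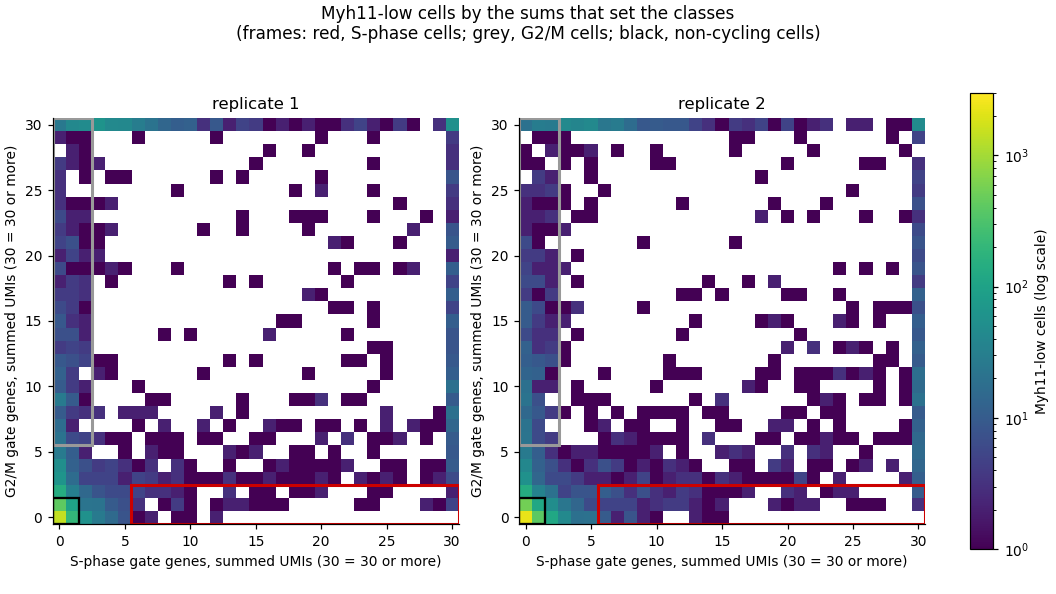
Numbers of Myh11-low cells (colour, log scale) by the summed UMIs of the 5 S-phase genes (x axis) and of the 5 G2/M genes (y axis) in each library, with sums of 30 or more drawn at 30. The red frame holds the 61 and 138 members, the black frame the non-cycling cells and the grey frame the G2/M cells.

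The members were compared with 4 other classes, by summing the counts of a class within each library. The main test held no library term, and only the fit with the library as a block compared the sums within a library. Non-cycling Myh11-low cells held at most 1 UMI in both sums (2176 and 3372 cells). G2/M Myh11-low cells had a G2/M sum of at least 6 and an S-phase sum of at most 2 (421 and 418 cells). Cells high in both gene sets had both sums at 6 or more (515 and 560 cells), a class added after the data had been seen. S-phase Myh11-retaining cells met the gate of the members but held at least 5 Myh11 UMIs (14 and 28 cells).

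Depth and cell quality were given beside these classes because the gate counted raw UMIs. The median depth was 23032 and 17834 UMIs in the members, 19357 and 14059 in non-cycling cells, 21516 and 14794 in G2/M cells, 30439 and 21820 in cells high in both sets, and 27536 and 18756 in Myh11-retaining cells. The members thus held more UMIs per cell than non-cycling cells in both libraries. The median share of mitochondrial UMIs was 3.76% and 4.91% in the members and 3.76% and 5.15% in non-cycling cells. Of the members, 3 and 8 were among the deepest 5% of all kept cells of their library, and no doublet caller was used.

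The members carried S-phase mRNAs that the gate had not used. Against non-cycling cells, 481 of 11596 genes were higher in the members (4.15%) and 16 were lower (0.138%), in the quasi-likelihood test of edgeR with adjustment after Benjamini and Hochberg at 0.05, and all of them had the same direction in both libraries. The 11 gate genes were left out of the test. Genes that rise and fall with the gate genes through the cell cycle follow from the selection, so that the counts for cell-cycle lists describe the class and are not independent support for its name. With the library as a block, which uses that both sums of a library come from the same culture, 1011 genes were higher and 631 lower. When members were matched to non-cycling cells of nearly their depth, 383 genes were higher and 15 lower. The median log2 difference over all genes was -0.07.

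Origin licensing was the most uniform list. Before S phase, the origin recognition complex, Cdc6 and Cdt1 load the Mcm2-7 helicase onto origins, and Gmnn (geminin) then blocks reloading. All 20 genes of the list were higher in the members than in non-cycling cells, with a median log2 difference of 3.43, and their summed level was 1443 and 1503 CPM (UMIs of the gene scaled to 1000000 UMIs of the class in that library) in the members against 168 and 185 CPM in non-cycling cells. Mcm3, a helicase subunit, stood at 187 and 191 CPM in the members and at 10.1 and 11.3 CPM in non-cycling cells, a log2 difference of 4.07 ± 0.156 (SE; adjusted p = 1.77e-05, edgeR). Mcm6 stood at 126 and 161 CPM against 14.5 and 16.0 CPM, and Gmnn at 132 and 124 CPM against 6.85 and 11.3 CPM. The classes did not overlap for any of these 3 genes. Cdc6, the loader, was at 37.0 and 48.2 CPM against 1.51 and 1.36 CPM.

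Replication fork genes followed closely. Of 28 genes, 27 were higher (28 with the library as a block), the median log2 difference was 2.97, and the summed level was 1423 and 1440 CPM against 225 and 243 CPM. Pcna, the sliding clamp, was at 63.7 and 94.1 CPM in the members and at 9.34 and 11.9 CPM in non-cycling cells. Rpa2, a subunit of the single-strand binding complex, was at 73.9 and 80.7 CPM against 3.97 and 4.92 CPM, and Rfc3, a subunit of the clamp loader, at 75.8 and 78.1 CPM against 8.53 and 8.51 CPM. In each case both values of the members lay above both values of non-cycling cells. Lig1, the ligase that joins Okazaki fragments, was at 166 and 101 CPM against 15.9 and 10.4 CPM. Rpa3, the small subunit of the single-strand binding complex, did not pass, at 14.7 and 24.7 CPM against 6.39 and 13.0 CPM, and passed with the block (adjusted p = 0.00377, edgeR).

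Nucleotide synthesis genes were divided. Of 20 genes, 11 were higher (17 with the block) with a median log2 difference of 1.45, and the summed level was 1668 and 1685 CPM against 623 and 652 CPM. Rrm2, the regulated subunit of ribonucleotide reductase, stood at 188 and 145 CPM against 12.4 and 10.3 CPM, a log2 difference of 3.80 ± 0.249 (SE; adjusted p = 8.18e-05, edgeR). Tyms, thymidylate synthase, was at 129 and 119 CPM against 21.8 and 23.0 CPM. Dtymk, thymidylate kinase, had a log2 difference of 0.92. Impdh2, the rate-limiting enzyme of guanine nucleotide synthesis, was at 125 and 98.6 CPM against 86.4 and 80.2 CPM, and Ctps, which makes CTP, at 120 and 115 CPM against 86.1 and 78.9 CPM, and neither passed the test (adjusted p = 0.478 and 0.188, edgeR). Both passed with the block (adjusted p = 0.0277 and 0.00402, edgeR).

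Genes that supply histones and copy chromatin were higher in 16 of 18 cases (17 with the block), with a median log2 difference of 2.69 and a summed level of 1746 and 1792 CPM against 269 and 308 CPM. Slbp, which binds the stem-loop of histone mRNAs, was at 168 and 174 CPM in the members and at 32.0 and 36.0 CPM in non-cycling cells. Casp8ap2 (FLASH), a factor of histone mRNA processing, was at 126 and 124 CPM against 26.7 and 29.6 CPM. Hells, a chromatin remodeler needed for DNA methylation, was at 131 and 156 CPM against 5.24 and 6.09 CPM. Dnmt1, which copies DNA methylation onto the new strand, was at 168 and 151 CPM against 21.8 and 23.3 CPM. The libraries lay close together in these genes. Lsm10, a subunit of the U7 particle that trims histone mRNAs, did not pass and was at 29.3 and 47.8 CPM against 32.0 and 48.4 CPM.

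The histone mRNAs themselves were only partly visible. The list of replication-dependent histones took all genes outside the gate that are named after the histone clusters. It was drawn by name and not by a measured dependence on replication. Of its 64 genes, 19 had enough counts to be tested and 6 were higher in the members (11 higher and 2 lower with the block). The median log2 difference was 1.80 over the 19. Hist1h1a, a linker histone H1 gene at chr13:23763666-23764406 (GRCm38, plus strand), was at 34.4 and 24.3 CPM in the members and at 0.306 and 0.382 CPM in non-cycling cells, a log2 difference of 6.29 ± 0.334 (SE; adjusted p = 3.81e-05, edgeR). Hist1h1e, another H1 gene of the same cluster (chr13:23620629-23622558, minus strand), was at 95.6 and 114 CPM against 13.0 and 22.8 CPM. The core histone genes Hist1h4d, Hist1h2ab and Hist1h3a, also on chromosome 13, and Hist2h2ac on chromosome 3 passed at 13.1 CPM or less, and reads of such near-identical copies are uncertain. Hist1h2bc did not follow: it was at 60.5 and 83.3 CPM in the members and at 104 and 162 CPM in non-cycling cells (adjusted p = 0.291, and 1.11e-05 with the block, edgeR).

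Replacement histones, which are made throughout the cycle from polyadenylated mRNAs, had a median log2 difference of 0.09 against non-cycling cells. Beside 481 of 11596 genes higher over all, 2 of these 11 were higher (3 higher and 1 lower with the block). These were H2afz, at 685 and 803 CPM against 300 and 317 CPM, and H2afx, the variant phosphorylated at DNA breaks, at 87.9 and 83.7 CPM against 24.6 and 28.5 CPM. The H3.3 genes H3f3b and H3f3a did not pass, and H3f3b was at 1631 and 1981 CPM in the members and at 1508 and 1919 CPM in non-cycling cells. Against G2/M cells 3 of the 11 genes were lower in the members (5 with the block), and H2afz was at 1369 and 1645 CPM in G2/M cells. Against cells high in both gene sets 3 were lower (6 with the block).

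Checkpoint and repair genes had the highest median log2 difference of the lists, 3.90, and 22 of 25 were higher (23 with the block). Their summed level was 751 and 752 CPM against 80.9 and 85.3 CPM. Rad51ap1, a factor of homologous recombination, was at 79.0 and 76.9 CPM in the members and at 0.917 and 1.03 CPM in non-cycling cells, a log2 difference of 6.24 ± 0.196 (SE; adjusted p = 1.44e-05, edgeR). Topbp1, an activator of the kinase Atr, was at 118 and 111 CPM against 13.9 and 16.1 CPM. Msh6, a mismatch repair subunit, was at 34.4 and 51.6 CPM against 5.94 and 7.54 CPM. Atr itself was at 9.56 and 13.8 CPM against 5.59 and 8.07 CPM, and its partner Atrip at 10.19 and 14.9 CPM against 10.0 and 9.94 CPM, and neither passed the test.

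In the cohesin list, 4 of 12 genes were higher (7 with the block), with a median log2 difference of 0.42. Cdca5 (sororin), which protects cohesion of replicated sister chromatids, was at 12.7 and 12.0 CPM against 0.327 and 0.534 CPM. Ring subunits differed by less: Smc3 was at 207 and 204 CPM against 98.2 and 92.7 CPM and Rad21 at 74.5 and 61.6 CPM against 33.9 and 31.5 CPM, and both passed. Wapl, which opens the ring, was at 79.6 and 73.2 CPM against 68.1 and 69.9 CPM.

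Of 13 E2F and pocket protein genes, 7 were higher (9 with the block), with a median log2 difference of 1.28. E2f1, an activator, was at 62.4 and 63.9 CPM in the members and at 12.8 and 15.6 CPM in non-cycling cells. The atypical repressors E2f7 and E2f8 were higher in the members, E2f7 at 30.6 and 26.2 CPM against 1.16 and 0.725 CPM, and E2f8 at 21.02 and 24.7 CPM against 0.131 and 0.305 CPM (log2 difference 6.57 ± 0.416, SE; adjusted p = 7.19e-05, edgeR). Rb1, the retinoblastoma gene, was at 22.9 and 32.5 CPM against 18.5 and 23.8 CPM and the repressor E2f4 at 20.4 and 19.4 CPM against 21.04 and 18.7 CPM. Neither of the last pair passed.

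Among 15 cyclins, kinases and their regulators, 9 were higher (11 with the block), with a median log2 difference of 1.80. Ccne2 (cyclin E2; chr4:11191351-11204779, plus strand), which acts at the entry into S phase, was at 56.7 and 69.9 CPM against 1.77 and 2.23 CPM, a log2 difference of 4.91 ± 0.291 (SE; adjusted p = 5.70e-05, edgeR). Ccne1 was at 56.7 and 42.2 CPM against 6.63 and 6.79 CPM, and Ccna2, the cyclin of S phase and G2, at 46.5 and 50.8 CPM against 1.11 and 2.04 CPM. The cyclin D2 gene Ccnd2 was at 555 and 592 CPM against 597 and 654 CPM (adjusted p = 0.683, edgeR). Cdk4, the partner kinase of D cyclins, was at 236 and 297 CPM against 171 and 228 CPM, and Ccnd3 at 102 and 133 CPM against 79.0 and 79.4 CPM. Both passed only with the block (adjusted p = 0.0127 and 0.0117, against 0.603 and 0.388 without it, edgeR).

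Some genes that restrain the cycle were lower in the members. In the list of CDK inhibitors and p53 targets, 2 of 20 were lower and 1 was higher, beside 16 lower and 481 higher of 11596 genes over all. The median log2 difference was -0.82, beside -0.07 over all genes. With the block 13 were lower and 2 higher, beside 631 lower and 1011 higher over all. Cdkn1a (p21; chr17:29090976-29100727, plus strand), which inhibits cyclin-dependent kinases, was at 128 and 127 CPM in the members and at 215 and 287 CPM in non-cycling cells, a log2 difference of -1.05 ± 0.197 (SE; adjusted p = 0.0239, edgeR). Ccng1 (cyclin G1), a p53 target, was at 99.4 and 111 CPM against 163 and 228 CPM, a log2 difference of -0.96 ± 0.195 (SE; adjusted p = 0.0349, edgeR). Cdkn2c (p18), an inhibitor of Cdk4 and Cdk6, was higher, at 35.0 and 38.5 CPM against 14.7 and 18.1 CPM. Cdkn1b (p27) was at 77.1 and 73.2 CPM against 69.7 and 59.3 CPM. The calls of Cdkn1a and Ccng1 were lost, with the direction kept, when only the 4 sums were fitted, with an S-phase sum of at least 4, and with gates set per 10000 UMIs, and that of Cdkn1a also without the deepest cells.

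Mitosis genes were above the non-cycling level, in the direction that the limits of the classes impose, since the G2/M sum could reach 2 in the members and only 1 in non-cycling cells. Ube2c, a gate gene, was at 23.6 and 35.1 CPM against 4.87 and 5.21 CPM. Of 28 genes, 25 were higher (26 with the block), with a median log2 difference of 3.15 and a summed level of 1386 and 1240 CPM against 200 and 197 CPM. Top2a, the topoisomerase that untangles replicated DNA, was at 252 and 189 CPM against 10.1 and 8.74 CPM, and Mki67, the proliferation marker Ki-67, at 160 and 135 CPM against 5.46 and 5.32 CPM. Ccnb2, the cyclin of mitotic entry, was at 22.9 and 23.2 CPM against 21.7 and 14.0 CPM and Cdkn3, a phosphatase of the mitotic exit, at 26.1 and 35.5 CPM against 17.07 and 17.02 CPM, and neither passed, while Cdkn3 did with the block (adjusted p = 0.00165, edgeR). In ribosome biogenesis, 2 of 12 genes were higher (9 with the block), Nop56 and Nop58, both parts of the particle that methylates ribosomal RNA, and Nop56 was at 161 and 130 CPM against 50.6 and 50.4 CPM.

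**Figure D3:**
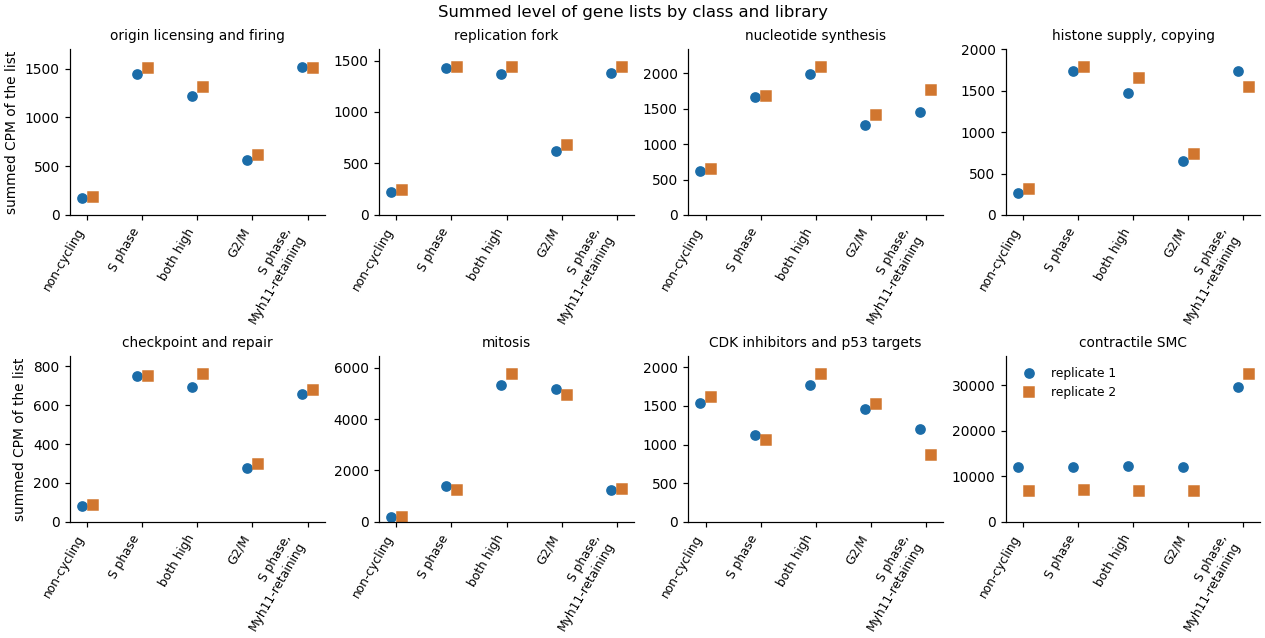
Summed CPM of 8 gene lists (y axes, from 0) in 5 classes of cells, 1 point per library (blue circles, replicate 1; orange squares, replicate 2). The licensing list stood at 1443 and 1503 CPM in the members against 168 and 185 CPM in non-cycling cells, and the contractile list at 11922 and 6966 CPM against 12105 and 6866 CPM.

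No contractile gene passed the test between members and non-cycling cells. Of 18 contractile genes tested, 0 were called, also with the block. Over all 11596 genes, 481 were higher and 16 lower. The median log2 difference of the contractile list, -0.09, lay near the -0.07 of all genes. Acta2 (αSMA) was at 3511 and 2166 CPM in the members and at 3661 and 2112 CPM in non-cycling cells, and Tagln (SM22α) at 1930 and 1152 CPM against 1971 and 1105 CPM. In both genes the libraries differed from each other by more than the classes did within a library.

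A few markers of modulated VSMCs and matrix genes passed with the block and none without it. Of 16 markers of modulated cells and 29 matrix genes, 0 were called without it, with median log2 differences of -0.17 and -0.16, and 4 and 2 of them were lower with it, beside 631 of 11596 genes over all. S100a4 was at 2888 and 3554 CPM against 2680 and 3657 CPM and Mgp, the calcification inhibitor matrix Gla protein, at 3107 and 3797 CPM against 3428 and 4771 CPM. Fn1 (fibronectin) was at 1636 and 1565 CPM against 2022 and 1702 CPM. Over all 11596 genes, 1373 had an unadjusted p under 0.05 in edgeR, and DESeq2 called 634 genes higher and 28 lower.

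No gene of the cGMP pathway, which relaxes VSMCs and is the subject of the study, passed the test without the block. Of 23 genes, 17 could be tested and 0 were called, beside 481 higher and 16 lower of 11596 genes over all. A count of 0 among so few genes does not set the list apart from all genes. With the block 1 was higher and 1 lower, beside 1011 and 631 over all. The median log2 difference was -0.18, and the summed level was 817 and 642 CPM against 813 and 643 CPM. Npr2, the guanylyl cyclase GC-B that binds C-type natriuretic peptide (CNP), was at 31.2 and 52.7 CPM in the members and at 39.2 and 52.4 CPM in non-cycling cells. Npr1, the guanylyl cyclase GC-A, was at 0 and 1.49 CPM against 1.62 and 1.41 CPM, where the members held 0 and 4 UMIs. Npr3, the clearance receptor, was at 316 and 208 CPM against 230 and 179 CPM (adjusted p = 0.791, and 0.0463 with the block, edgeR). Prkg1 (cGKI), the cGMP-dependent kinase, was at 23.6 and 24.3 CPM against 33.3 and 26.2 CPM, Vasp, a kinase substrate, at 112 and 73.2 CPM against 113 and 86.1 CPM, and the phosphodiesterase gene Pde5a at 103 and 70.6 CPM against 119 and 96.2 CPM. With the block, Pde3a passed as the lower gene of the list, at 75.8 and 76.2 CPM against 96.6 and 85.7 CPM (adjusted p = 0.0361, edgeR).

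Outside the lists, 329 genes were higher and 14 lower. By the naming rule, the largest rises were those of Aunip, Fbxo5, Mybl2, Knl1, Slfn9, Lrr1, Ercc6l, Kif15, Ncapg2 and Pbk, with log2 differences from 6.12 down to 4.98. Fbxo5 (Emi1), which restrains the anaphase-promoting complex, was at 54.2 and 68.0 CPM against 0.742 and 1.01 CPM, and Mybl2 (B-Myb), a MuvB partner, at 25.5 and 16.1 CPM against 0.306 and 0.324 CPM. Slfn9, a schlafen family gene, was at 159 and 176 CPM against 3.03 and 4.12 CPM, a log2 difference of 5.48 ± 0.253 (SE; adjusted p = 2.99e-05, edgeR). It lies at chr11:82978390-82991830 (GRCm38, minus strand), and its family has close copies on the same chromosome, so that the counting may split reads among them.

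Without the block the lower genes were few, 16 over all, and the changes of those named were smaller. With the block 631 genes were lower. Kdm5b, a histone H3 lysine 4 demethylase, was at 14.0 and 17.2 CPM in the members and at 55.2 and 50.03 CPM in non-cycling cells, a log2 difference of -1.81 ± 0.309 (SE; adjusted p = 0.0147, edgeR). It was at 46.7 and 34.2 CPM in G2/M cells and at 16.1 and 14.0 CPM in cells high in both sets. The other falls named by the rule ran from a log2 difference of -1.27 for Cdc42ep2, an effector of the GTPase Cdc42, to -0.64 for Ypel3. Among them were Sesn3 (sestrin 3), at 13.4 and 20.2 CPM against 34.1 and 36.6 CPM, and Pdcd4, an inhibitor of translation, at 21.02 and 21.7 CPM against 43.8 and 38.1 CPM. The call of Sesn3 was lost in depth-matched cells, when only the 4 sums were fitted and with an S-phase sum of at least 4, and those of Kdm5b and Pdcd4 were lost with gates per 10000 UMIs.

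**Figure D4:**
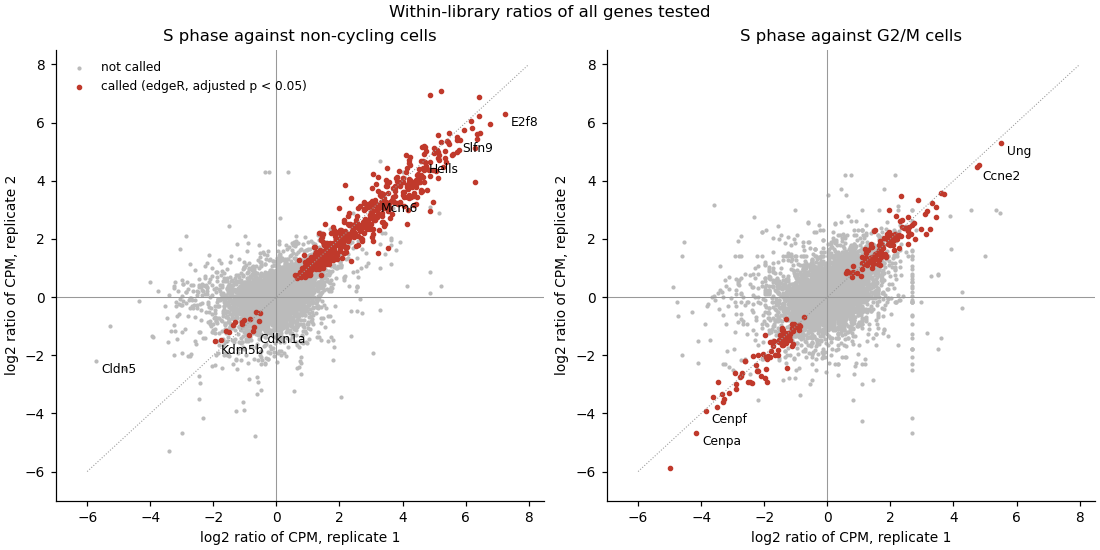
Log2 ratio of CPM for each of 11596 genes tested in replicate 1 (x axis) and replicate 2 (y axis), after adding 0.5 UMIs, for the members against non-cycling cells (left) and against G2/M cells (right), with called genes in red. All 481 higher and 16 lower called genes on the left lie on the same side of 0 in both libraries, and in the right panel Ung lies at the upper right and Cenpa at the lower left.

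Against G2/M cells, genes of the licensing, fork, histone supply and checkpoint lists were higher in the members and mitosis genes lower. In this comparison 115 of 11596 genes were higher in the members (0.992%) and 82 lower (0.707%) in the quasi-likelihood test of edgeR with adjustment after Benjamini and Hochberg, and 627 were higher and 533 lower with the block. Ung, the uracil glycosylase that clears uracil from new DNA (chr5:114130386-114139323, plus strand), was at 33.8 and 30.6 CPM in the members and at 0.699 and 0.707 CPM in G2/M cells, a log2 difference of 5.49 ± 0.290 (SE; adjusted p = 0.000542, edgeR). Ccne2 was at 2.10 and 3.11 CPM in G2/M cells and Cdc6 at 2.99 and 3.96 CPM, and their log2 differences were 4.62 and 3.62. Exo1, an exonuclease of mismatch repair, was at 30.6 and 45.6 CPM against 2.80 and 5.23 CPM. In all 3 genes both G2/M values lay below both values of the members.

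The lists divided accordingly. Licensing genes were higher in 12 of 20 cases (18 with the block, and 1 lower), fork genes in 14 of 28 (22 with the block), histone supply genes in 9 of 18 and checkpoint and repair genes in 13 of 25, with median log2 differences of 1.68, 1.19, 1.06 and 1.55 beside 0.00 over all genes. The E2F promoter motif was found in 37 of 99 genes higher in the members (37.4%) and in 0 of 72 genes lower, and the CHR motif in 16 of 99 (16.2%) and in 43 of 72 (59.7%). The motifs did not divide in this way against non-cycling cells. Of 394 genes higher in the members there that had a promoter in the table, 80 (20.3%) held the E2F motif and 121 (30.7%) the CHR motif. Among the cyclins, Ccne1, Ccne2, Cdk2, Cdc25a and Skp2 were higher and Ccna2 and Cks2 lower, of which Cdk2, Cdc25a and Skp2 are named after their values were seen. Of the CDK inhibitors and p53 targets 1 was lower, Ccng1 (9 with the block), and of the contractile, modulated, matrix and cGMP lists 0 genes were called. With the block, 0 contractile genes were higher and 1 lower, 2 modulated markers higher and 3 lower, 7 matrix genes higher and 1 lower, and 2 cGMP genes higher and 0 lower. Mitosis genes were lower in 23 of 28 cases with a median log2 difference of -2.03, in the direction that the gate itself imposes.

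The later genes that the gate did not use stood at different levels relative to the other classes. Cenpf, a kinetochore protein, was at 24.8 and 19.4 CPM in the members and at 365 and 294 CPM in G2/M cells, and Hmmr, a spindle protein, at 35.7 and 28.4 CPM against 410 and 396 CPM. Cenpa, the centromeric histone H3 variant, was at 20.4 and 16.1 CPM against 371 and 410 CPM, a log2 difference of -4.45 ± 0.225 (SE; adjusted p = 0.000542, edgeR), and it was at 18.2 and 13.9 CPM in non-cycling cells. Cenpa was therefore near its non-cycling level in the members, while Cenpf was at 2.86 and 3.11 CPM in non-cycling cells and lay between the other classes. Of the 481 genes higher than in non-cycling cells, 104 were also higher than in G2/M cells, 49 were lower than in G2/M cells and 328 had no call. Both comparisons use the same members, and the counts are not independent.

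Ung, Cdc6 and Orc1 were higher in the members than in cells high in both gene sets, and mitosis genes were lower. Against these cells, 7 of 12515 genes were higher in the members (0.0559%) and 101 lower (0.807%) in the quasi-likelihood test of edgeR with adjustment after Benjamini and Hochberg (192 and 427 with the block). The 7 were Ung, Cdc6, Orc1, Zfp367, E2f3, Casp8ap2 and Uhrf1; Uhrf1, a hemimethylated DNA binder, was named after its values were seen. Ung stood at 5.34 and 4.95 CPM in these cells against 33.8 and 30.6 CPM in the members, a log2 difference of 2.63 ± 0.213 (SE; adjusted p = 0.00102, edgeR). Orc1, the largest subunit of the origin recognition complex, was at 22.9 and 21.7 CPM in the members against 8.85 and 6.64 CPM, and Zfp367, a zinc finger gene, at 49.7 and 49.3 CPM against 22.1 and 23.1 CPM. Hells was at 67.3 and 79.1 CPM in cells high in both sets against 131 and 156 CPM in the members and passed only with the block (adjusted p = 0.182, and 2.63e-05 with the block, edgeR). The lists differed in direction: the summed level in cells high in both sets was 1214 and 1315 CPM for licensing (1443 and 1503 CPM in the members), 1365 and 1433 CPM for the fork (1423 and 1440 CPM) and 1991 and 2096 CPM for nucleotide synthesis (1668 and 1685 CPM). Of 20 licensing genes 2 were higher in the members (8 higher and 1 lower with the block), and of 20 nucleotide genes 1 was lower (5 with the block).

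Of the mitosis list, 27 of 28 genes were lower in the members, as the gate imposes. Of the CDK inhibitors and p53 targets 3 were lower (11 with the block), Cdkn1a, Cdkn2c and Cdkn2d, the last named after its values were seen. Cdkn1a was at 128 and 127 CPM against 380 and 410 CPM. The summed level of CDK inhibitors and p53 targets was 1777 and 1919 CPM in cells high in both sets, 1540 and 1616 CPM in non-cycling cells and 1122 and 1056 CPM in the members. This list thus had its lowest level of the Myh11-low classes in the members. The low level was not particular to the members, since S-phase Myh11-retaining cells stood at 1206 and 864 CPM. Cells high in both sets were also the deepest class, and the part of depth or of droplets with more than 1 cell in this comparison was not tested.

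Against S-phase cells that retained Myh11, the members differed in contractile mRNAs, while 0 genes of the licensing and fork lists passed the test. In this comparison 15 of 11596 genes were higher in the members (0.129%) and 44 lower (0.379%) in the quasi-likelihood test of edgeR with adjustment after Benjamini and Hochberg, and 309 and 396 with the block. In each of the licensing, fork, histone supply, checkpoint, cohesin and E2F lists 0 genes were called, also with the block, and their median log2 differences ran from -0.16 to 0.10. With the block, 1 of 29 matrix genes was higher and 6 were lower, and 2 cGMP pathway genes were higher and 2 lower. Of the CDK inhibitors and p53 targets 1 was higher and 2 lower with the block, of the cyclins and kinases 1 was higher, and 1 gene each of the nucleotide synthesis, mitosis and replication-dependent histone lists was lower. Endothelial markers summed to 25.5 and 24.7 CPM in the members and to 0 UMIs in both libraries of the Myh11-retaining cells (0 of 5 genes called, 1 higher with the block). Without cells that held at least 3 UMIs of endothelial or of macrophage markers, 14 genes were higher and 40 lower. Mcm3 was at 204 and 187 CPM in the Myh11-retaining cells, Ccne2 at 56.0 and 93.3 CPM and Ung at 35.6 and 29.4 CPM. A p above the threshold does not show that the levels are equal, and the Myh11-retaining class was small, with 42 cells.

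Contractile genes had a median log2 difference of -2.29, and 3 of 18 were lower (17 with the block). Their summed level was 11922 and 6966 CPM in the members against 29597 and 32517 CPM. Itga8, an integrin of contractile cells, was at 22.9 and 26.9 CPM against 165 and 401 CPM, a log2 difference of -3.55 ± 0.388 (SE; adjusted p = 0.0167, edgeR). Ramp1, a coreceptor of calcitonin gene-related peptide, was at 4.46 and 1.49 CPM against 132 and 109 CPM, and Mcam, an adhesion molecule, was the other gene called. Itga8 and Mcam are named after their values were seen. Acta2 was at 12097 and 14003 CPM in the Myh11-retaining cells (adjusted p = 0.0605, and 4.78e-06 with the block, edgeR). The Myh11 gate chose these classes, so that genes that follow Myh11 differ by selection.

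Outside the contractile list, Igfbp2, a binding protein of insulin-like growth factors, was at 31.9 and 43.3 CPM in the members and at 3027 and 2660 CPM in the Myh11-retaining cells, a log2 difference of -6.27 ± 0.819 (SE; adjusted p = 0.0290, edgeR). Tspan2, a tetraspanin, was at 3.82 and 4.11 CPM against 114 and 84.7 CPM. Efhd1 had 0 UMIs in the members and 11 and 19 UMIs in the Myh11-retaining cells, and it was at least 43.05-fold lower when the members were set at a floor of 3 UMIs over both libraries. Higher in the members were Aspn (asporin), a matrix proteoglycan, at 104 and 76.2 CPM against 10.17 and 19.01 CPM, and Ly6a (Sca1), a marker of modulated VSMCs, at 270 and 325 CPM against 71.2 and 44.9 CPM (adjusted p = 0.0300, edgeR). Ly6a was the 1 gene of 16 called in the modulated list (6 higher and 4 lower with the block). The counts over all genes changed with the setting. With gates set per 10000 UMIs, 0 genes passed in either direction (edgeR, where 929 had an unadjusted p under 0.05). That setting also left only 4 and 16 Myh11-retaining cells. In depth-matched cells, with 14 and 28 members, 5 higher and 14 lower genes passed. With DESeq2, 75 genes were higher and 214 lower.

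The members also varied among themselves. The licensing genes took a median of 14.95 UMIs per 10000 in members of replicate 1 (4.77 to 30.5) and 15.4 in replicate 2 (0.853 to 31.6), against 1.31 and 1.501 in non-cycling cells. Mitosis genes spread more, with a median of 14.0 (1.36 to 50.8) and 11.1 (1.30 to 78.8) in the members and of 46.2 and 47.6 in G2/M cells. The contractile list ran from 22.2 to 284 UMIs per 10000 in replicate 1 and from 9.01 to 328 in replicate 2, and its median of 113 and 58.1 was close to the 109 and 50.5 of non-cycling cells. The members thus ranged from cells with few to cells with many contractile mRNAs.

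Myh11-low cells with a G2/M sum of at most 2 were ordered by their S-phase sum to follow the lists along the gate. The bins were those of 0 to 1, 2 to 3, 4 to 5, 6 to 9, 10 to 19, and 20 or more UMIs, of which the last 3 are members. The licensing level was already 522 and 458 CPM at a sum of 2 to 3 and reached 1885 and 1809 CPM at 20 or more, from 172 and 191 CPM in the first bin. Mitosis genes stood at 341 and 318 CPM at a sum of 2 to 3 and at 2189 and 2240 CPM at 20 or more. Ccna2 went from 1.28 and 2.28 CPM in the first bin to 77.4 and 73.2 CPM in the last.

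Cdc6 was flatter within the members, at 32.6, 40.0 and 39.9 CPM in the 3 bins of replicate 1 and at 43.2, 60.3 and 43.3 CPM in those of replicate 2. Hist1h1a was steeper, at 6.21, 24.7 and 92.4 CPM and at 11.6, 20.5 and 56.6 CPM. The CDK inhibitors and p53 targets were below the first bin in every later one, with 1534 and 1609 CPM at a sum of 0 to 1 and 1133 and 1045 CPM at 20 or more. These values are a description along the gate's own axis, the last bin held only 16 and 31 cells, and the median depth of the bins ran from 19469 to 24517 UMIs in replicate 1 and from 14108 to 18035 in replicate 2.

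**Figure D5:**
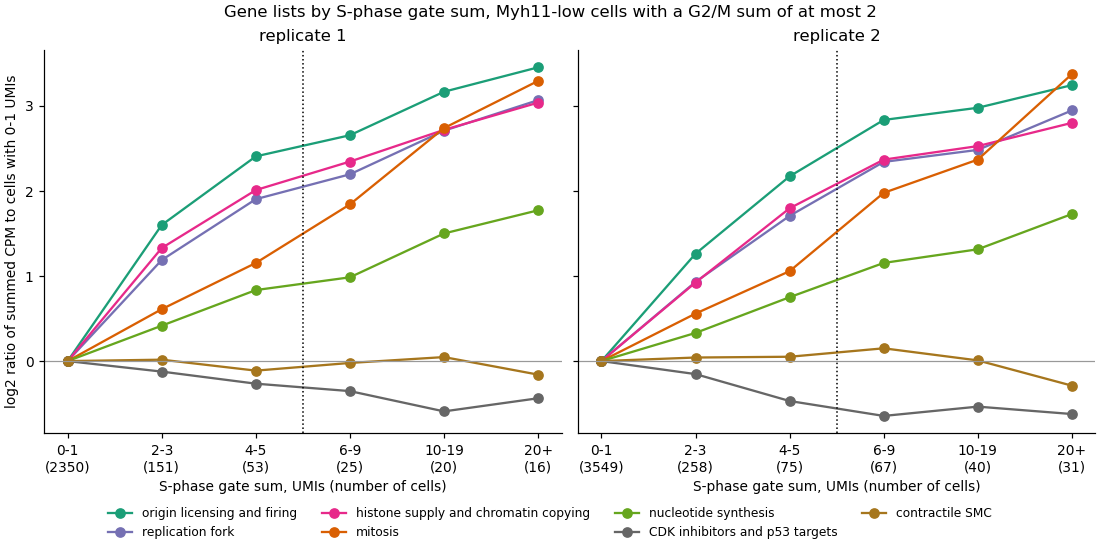
Log2 ratio of the summed CPM of 7 gene lists to cells with a sum of 0 to 1 (y axis) along bins of the S-phase gate sum (x axis, number of cells in parentheses) in each library, with the threshold of 6 UMIs as a dotted line. In replicate 1 the licensing genes stood at 522 CPM and the mitosis genes at 341 CPM in the bin of 2 to 3, up from 172 and 223 CPM, and CDK inhibitors and p53 targets lay below 0 in all later bins.

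Markers of other cell types were low in the members. Endothelial markers (5 genes) summed to 25.5 and 24.7 CPM in the members and to 58.5 and 51.3 CPM in non-cycling cells; Cdh5 was the most abundant in replicate 1 with 12.7 CPM and Pecam1 in replicate 2 with 10.1 CPM, and Cldn5 was at 0 in replicate 1. Of 5 endothelial genes, 0 were called against non-cycling cells (median log2 difference -0.81), and Cldn5 was lower with the block. Macrophage markers (5 genes) summed to 4.46 and 5.23 CPM with Adgre1, C1qa and Ptprc at 0 in both libraries, and of 2 genes tested 0 were called. Schwann cell markers (4 genes) summed to 1.91 and 0.747 CPM with Sox10 and Mbp at 0, and none could be tested. At least 3 UMIs of endothelial markers were found in 2 and 3 members and at least 3 UMIs of macrophage markers in 0 and 0, and without such cells 476 genes were higher than in non-cycling cells and 13 lower.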

How the data were processed

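Single-cell RNA-seq libraries of cultured aortic VSMCs from wildtype mice, biological replicates 1 and 2, were used. The deposited values are raw UMI counts per gene and barcode that the authors made with Cell Ranger (3.0.2 per the labels, build mm10; the matrix headers give 3.0.2 for replicate 1 and 3.1.0 for replicate 2). By the study's methods a preparation pooled the aortae of several mice on average. Whether the replicates were separate preparations is not stated beyond the word biological, so p-values measure the spread between these libraries. The filters of the study were applied (300 genes, 3000 UMIs and a mitochondrial share below 20%), and 16494 genes found in at least 10 cells were used. No doublet caller was run.

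Cells were classed by the UMI limits given with each class, and counts were summed per library and class. The 8 sums of 4 classes were fitted together in edgeR 4.0.16 (R 4.3.3; TMM, filterByExpr, quasi-likelihood test, Benjamini-Hochberg adjustment over 11596 genes) without the 11 gate genes; the fit with cells high in both gene sets held a further pair of sums. CPM are UMI counts scaled to 1000000 per sum. The alternatives were DESeq2 1.42.0, the library as a replicate block, other filters and gates, and cells matched on depth. The sums of a library share 1 culture, and their deviations from the class means correlated for every pair of these 4 classes (0.191 to 0.779), so the library pairs the sums; pairs with cells high in both gene sets were not computed. Tests were checked on simulated data, where small changes were mostly missed and false calls against non-cycling cells ran above the nominal rate, with and without the block. Median depth per member was 23032 and 17834 UMIs.

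The members and the 20 lists were chosen with earlier results of these data known. Genes were named by a rule: in each list up to 6 called genes and up to 3 others with the highest CPM, cGMP pathway genes at 5 CPM or more, and outside the lists the 10 largest rises and falls at 20 CPM or more (5 in each direction for the other comparisons). Positions are those of GENCODE M21 (GRCm38), in which 31011 of 31053 gene IDs were found. Promoters came from the RefSeq table of GRCm38.p6. A few genes of the lists are not reported here. Python 3.11.15 with numpy 2.4.6, pandas 2.3.3, scipy 1.17.1 and matplotlib 3.10.9 was used.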

Additional observations from a re-analysis of the deposited data

How the results depend on the processing

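None of the named called genes changed direction under any setting run. With the library as a replicate block, more genes passed: 1011 higher and 631 lower than in non-cycling cells (481 and 16 without it), 627 and 533 against G2/M cells (115 and 82), 309 and 396 against Myh11-retaining cells (15 and 44), and 192 and 427 against cells high in both gene sets (7 and 101), and each of these sets held all genes called without the block. Adding the block to depth-matched cells, chosen after seeing the data, gave 247 lower genes against non-cycling cells, 410 higher and 305 lower against G2/M cells, and 148 and 240 against Myh11-retaining cells. DESeq2 gave 28 lower genes against non-cycling cells, 224 and 156 against G2/M cells and 75 and 214 against Myh11-retaining cells. Lower genes against non-cycling cells numbered 10 when only the 4 sums were fitted and 8 with an S-phase sum of at least 4. Against Myh11-retaining cells the counts were 37 and 80 without the filter on low counts, 6 higher with only the 4 sums, 5 and 14 in depth-matched cells, 62 and 116 with an S-phase sum of at least 4, 2 and 3 with at least 10, and 0 and 0 with gates per 10000 UMIs (edgeR; 929 genes at an unadjusted p under 0.05). The number of cells changed too. Myh11-retaining cells numbered 4 and 16 with gates per 10000 UMIs and 5 and 11 with a sum of at least 10. They numbered 14 and 28 in the main fit. The cause was not tested. The share of members among Myh11-low cells, 2.01%, was 3.34% with a sum of at least 4 and 1.09% with at least 10, and ran from 1.51% to 2.51% with 1 library left out. Without 1 library no residual degrees of freedom remain, so a test could not be run. All called genes kept their direction in each library alone. They were called from these same libraries, so this is a description and not a separate check. Of the values of named genes under the other settings, 1291 stayed on their side of the threshold and 79 dropped below it; with 1 library left out, 140 moved by less than the spread between libraries and 90 by more. Of the counts of called genes per list, 1443 stayed within 1.5 times and 157 did not. With 61 and 138 members, genes of a few CPM rest on few UMIs.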
